A study of Mus musculus with 4 samples.

Results

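The chemokine and interleukin genes of the mouse, and the genes of their receptors, were examined for trimethylation of lysine 4 of histone H3 (H3K4me3) at their promoters in the adult hippocampus. Members were the protein-coding genes of GENCODE release M21 whose symbol is Ccl, Cxcl, Ccr or Cxcr followed by a number, or starts with Il and a digit. This symbol rule found 129 of 21853 protein-coding genes, and it used no measured value. Of these, 69 were ligands (31 chemokines and 38 interleukins) and 57 were receptors or receptor chains (16 for chemokines and 41 for interleukins). The remaining 3 were Il1rn, which encodes a secreted antagonist of the interleukin 1 receptor, Il18bp, a secreted binding protein for interleukin 18, and Il4i1, an amino acid oxidase named for its induction by interleukin 4. Il1f5, whose product is also a receptor antagonist, was kept with the ligands by its symbol. Decoy receptors, Il22ra2 among them, and the relatives Il1rapl1 and Il1rapl2 were likewise kept with the receptors by their symbols.

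Chemokines are small secreted proteins that bind G protein-coupled receptors and direct the movement of cells, and interleukins are secreted signals that mostly act through receptors built from several chains and the Jak and Stat proteins or the Myd88 and NF-kappaB pathway. Many of their genes lie in clusters of tandem copies. In the brain a few of them, such as Cxcl12 with its receptor Cxcr4, act in development and in resting tissue, whereas most are known for being switched on in immune cells, glia or vessels during inflammation. H3K4me3 is a histone modification found around the start sites of genes that are transcribed or held ready for transcription, most often where the DNA is rich in CpG dinucleotides.

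The tissue came from adult male mice of the hybrid strain B6CASTF1/J aged 2 months, and the labels call it a layer of hippocampus without naming the layer. There were 2 pools of frozen tissue, of which pool D is biological replicate 1 and pool C is biological replicate 2, each made from 7 tissue samples, with 2 technical replicate libraries per pool. No treatment, genotype or second tissue was given, so all libraries belong to the same condition. Peaks and sequence are on the reference genome, and how well reads of the other parental strain were placed on it was not tested. Both technical replicates of a pool were merged upstream into 1 alignment, and the deposited peaks form 1 list for pool D (24690 peaks), 1 for pool C (34193 peaks), 1 called on both pools together (31301 peaks) and 1 of replicated peaks (27063 peaks), which was the main list. The read depth is not known from these files. Markers of brain cell types were counted, but none of a region or layer, so the label hippocampus itself was not tested. In each of the replicated, pool D and pool C lists, 10 of 10 neuronal and 9 of 9 astrocyte markers carried a promoter peak. Oligodendrocyte markers did so in 10, 8 and 10 of 10 cases, beside 64.8%, 63.7% and 66.3% of all genes.

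A gene was called marked when a peak came within 1 kb of any start site of its protein-coding transcripts, and its domain was the run of peaks joined across gaps of up to 1 kb. Its breadth is the length of that domain in bp, and a gene with several domains was given the broadest. The tissue is a mixture of cells, so fewer cells of a type and less of the mark per cell cannot be told apart. With 1 list per pool there is no replicate test of a difference between gene groups, and the counts below describe these lists.

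For most chemokine and interleukin genes no H3K4me3 peak was detected at the promoter in the hippocampus, and a peak was detected more often at receptors than at ligands. In the replicated list 42 of the 129 members were marked (32.6%), against 64.8% of all protein-coding genes. By role, 16 of 69 ligands (23.2%) and 25 of 57 receptors (43.9%) were marked, with Il4i1 the only marked gene of the remaining 3. The pool D list held 15 ligands (21.7%) and 24 receptors (42.1%), beside 63.7% of all genes. The pool C list held 20 ligands (29%) and 26 receptors (45.6%), beside 66.3% of all genes. Receptors were thus ahead of ligands in both pools, and both classes were below the background in each list.

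The excess of receptors came from the interleukin side. Interleukin receptor chains were marked in 21 of 41 cases (51.2%) in the replicated list, whereas chemokine receptors were marked in 4 of 16 (25%), close to the chemokine ligands with 7 of 31 (22.6%) and the interleukin ligands with 9 of 38 (23.7%). In pool D these counts were 21, 3, 7 and 8. In pool C they were 23, 3, 8 and 12. The order of interleukin receptors above the other classes held in each of these lists, while the order among the other classes differed from list to list.

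**Figure D1:**
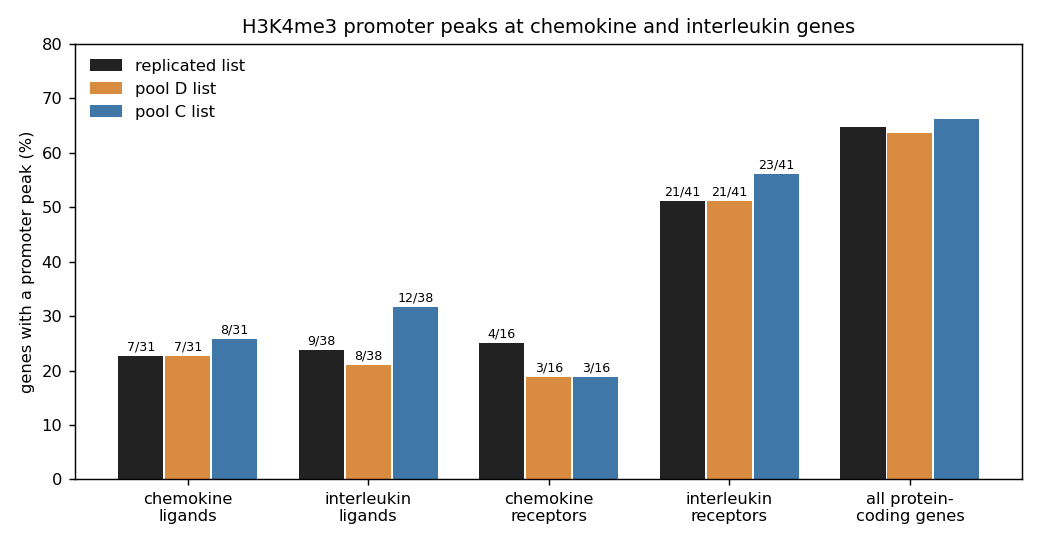
Share of genes with a promoter peak (vertical axis, percent) for the 4 classes and for all protein-coding genes, in the replicated list (black), pool D (orange) and pool C (blue), with the counts printed over the bars. Interleukin receptors reach 51.2% in the replicated list and the other classes stay between 22.6% and 25%, all below the 64.8% of all genes.

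Among the chemokine ligands the marked genes were Cxcl12, Cxcl14, Ccl25, Cxcl1, Cxcl16, Cxcl5 and Cxcl10. Cxcl12 had the broadest domain of any ligand. This chemokine guides neurons and blood progenitors and is the ligand of Cxcr4. Its domain covered chr6:117167123-117171304 (build mm10) and was 4182 bp long in the replicated list, 2959 bp in pool D, and in pool C 5543 bp (mean of the pools 4251 ± 1827 bp, SD, n = 2). Cxcl14, a chemokine made by several epithelia and by neurons, had a domain of 3292 bp at chr13:56293689-56296980, with 3121 bp for pool D and 3603 bp for pool C. The pools were thus closer for Cxcl14 than for Cxcl12, and both genes exceeded the median of 2234 bp over all marked genes of the genome in each list.

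Ccl25, a chemokine known for drawing lymphocytes to the gut and thymus, came next with 2880 bp (pool D 2523 bp, pool C 3424 bp). Its domain at chr8:4323323-4326202 also held a start site of Elavl1, which encodes an RNA-binding protein found in most cells, so the mark cannot be assigned to Ccl25 alone. The other chemokine ligands had narrow domains. Cxcl1 spanned 1052 bp (1040 and 1182 bp in pools D and C), Cxcl16 987 bp (795 and 1119 bp) and Cxcl5 848 bp (631 and 909 bp). Cxcl1 and Cxcl5 attract neutrophils, and Cxcl16 is a chemokine that is first held at the cell membrane. The Cxcl16 domain also held a start of Zmynd15. Cxcl10, an interferon-induced chemokine, had 574 bp in the replicated list, 420 bp in pool D, yet 851 bp in pool C.

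Among the interleukins the marked genes were Il17d, Il15, Il16, Il18, Il33, Il7, Il11, Il6 and Il12b. Il17d, a member of the interleukin 17 family found in nervous tissue and muscle, had the broadest domain of them with 2258 bp (pool D 2104 bp, pool C 2770 bp), just above the genome median. Il15, which sustains natural killer cells and memory T cells, had 1990 bp (1550 and 2317 bp in pools D and C). Il16, a chemoattractant for CD4+ cells whose gene also encodes a neuronal scaffold form, had 1841 bp (1775 and 1872 bp). Il18, an inflammasome-processed cytokine, also had 1841 bp (1437 and 1948 bp) in a domain shared with Bco2.

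Il33, an alarmin stored in the nuclei of glia and barrier cells, had 1812 bp (pool D 1217 bp, pool C 1856 bp). Il7, a growth factor of lymphocytes, had 1224 bp (1112 and 1318 bp). The remaining interleukin domains were short. Il11, a cytokine of the interleukin 6 family, spanned 636 bp (296 and 786 bp), and Il6, a main cytokine of the acute response, spanned 491 bp (429 and 520 bp). Il12b, the subunit shared by interleukins 12 and 23, had a peak of 324 bp in the replicated list and 392 bp in pool C but none in pool D. No marked interleukin apart from Il17d reached the genome median of the replicated list.

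The receptors with the broadest domains were Ccr10, Il1rapl1, Il1rap, Il6st, Cxcr4, Il1rapl2, Il1r1 and Il17rd. Ccr10, a receptor for Ccl27 and Ccl28, stood in a domain of 9922 bp at chr11:101169161-101179082 (pool D 5347 bp, pool C 10037 bp), made of 5 joined peaks. That domain also held starts of Cntnap1, a gene of the axon-glia junction, and of Plekhh3, and the single Ccr10 start lay 59 bp outside the nearest peak, in a gap between joined peaks. Its breadth is therefore that of a shared region.

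The interleukin 1 receptor family held several of the other broad domains. Il1rapl1, a synapse-organising relative of the interleukin 1 receptor, had 5706 bp at chrX:88110914-88116619 (pool D 5198 bp, pool C 6222 bp). Il1rap, the accessory chain used by the receptors for interleukin 1, interleukin 33 and the Il1f cytokines, had 5125 bp at chr16:26581017-26586141 (3665 and 5323 bp in pools D and C, mean 4494 ± 1172 bp, SD, n = 2). These domains held no start of another protein-coding gene and were over 5 kb in the replicated list. With Ccr10, 3 of the 42 marked members were over 5 kb, beside 983 of the 14169 marked genes of the genome. Il1rapl2, the X-linked relative of Il1rapl1, had 2090 bp, with 900 bp in pool D against 2148 bp in pool C. Il1r1, the signalling receptor of interleukin 1, had 2007 bp (1557 and 2288 bp).

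Il6st encodes gp130, the signal-transducing chain shared by the receptors for interleukin 6, interleukin 11, Lif and related cytokines. Its domain at chr13:112463271-112466542 was 3272 bp long (pool D 2271 bp, pool C 3376 bp), and its best peak stood at rank 2734 of 27063 by the authors' signal value, the strongest of any member in the replicated list. In pool C, Ccl25 (rank 2091 of 34193) and Il15ra (rank 2985) stood above Il6st (rank 3696). Cxcr4, the receptor of Cxcl12, had 2892 bp at chr1:128590620-128593511, with 2786 bp for pool D and 2994 bp for pool C (mean 2890 ± 147 bp, SD, n = 2). Il17rd, a relative of the interleukin 17 receptor that restrains fibroblast growth factor signalling, had 1906 bp (1286 and 1975 bp). Cxcr4 thus differed little between the pools, and Il6st and Il17rd were wider in pool C.

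Other marked receptors in the replicated list were Il15ra, Il6ra, Il3ra, Il4ra, Il17ra, Il10rb, Il11ra1, Il1rl2, Il17rb, Il1r2, Il27ra, Ccr9, Il13ra1, Il20ra, Il10ra and Il17rc. They bind their cytokine or chemokine directly or complete a receptor for it, and among them Il1r2 is a decoy receptor of interleukin 1. Their domains ran from 1766 bp at Il15ra down to 407 bp at Il17rc. The Ccr9 domain of 1174 bp also held a start of Slc6a20a, and the Il17rb domain of 1324 bp a start of Chdh.

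**Figure D2:**
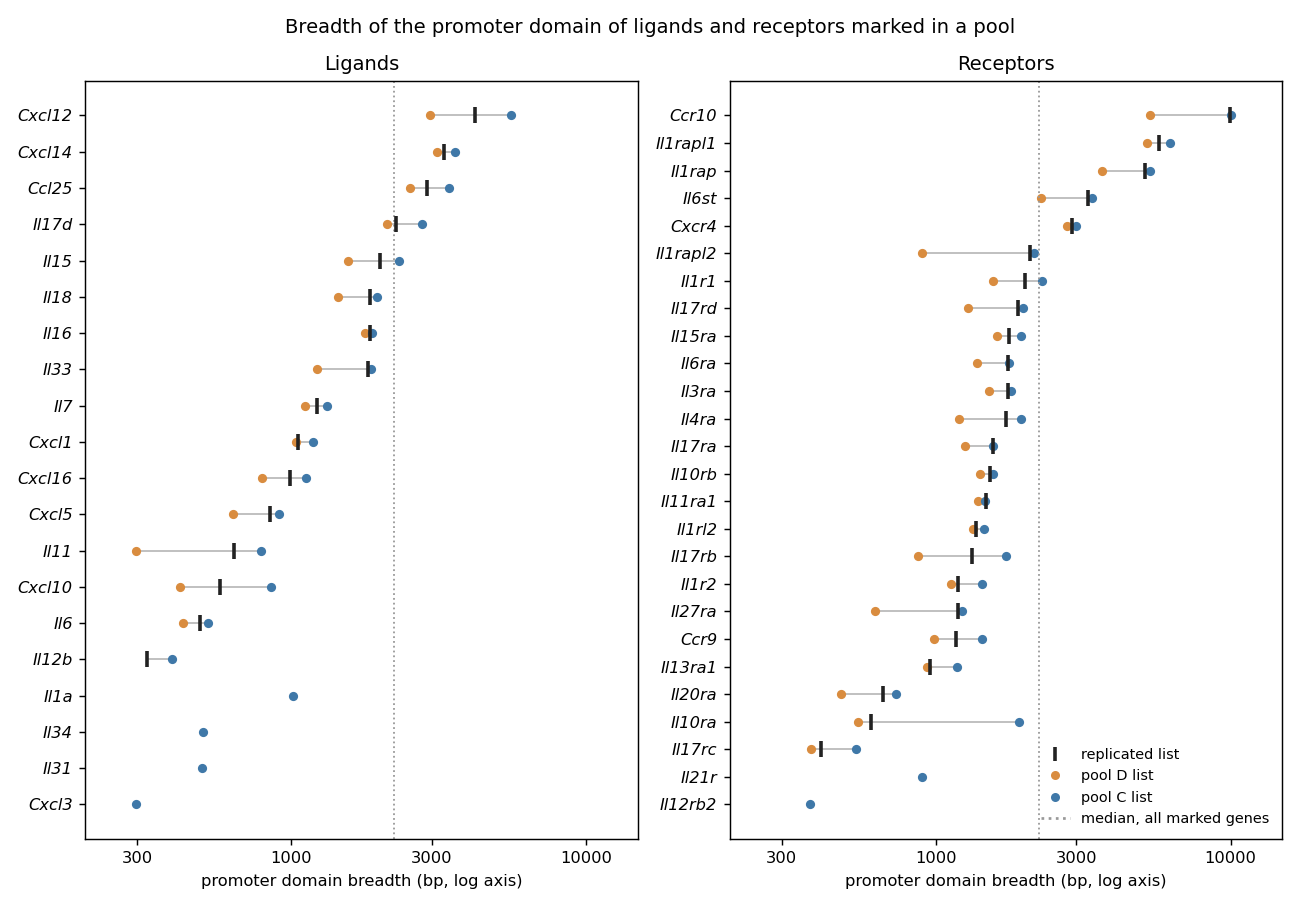
Breadth of the promoter domain of each ligand (left) and receptor (right) marked in at least 1 pool, on a log axis in bp, with a black bar for the replicated list and points for pool D (orange) and pool C (blue). The dotted line is the median of 2234 bp over all marked protein-coding genes. Ccr10, Il1rapl1 and Il1rap lie to the right of 5 kb, and in each gene marked in both pools the pool C point lies to the right of the pool D point.

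Marked members had narrower and weaker domains than the usual marked gene, and ligands and receptors did not separate in breadth. The median breadth in the replicated list was 1518 bp for the 16 ligands (quartiles 795 and 2057 bp) and 1565 bp for the 25 receptors (quartiles 1186 and 2007 bp), against 2234 bp for all marked genes (quartiles 1632 and 3134 bp). In pool D the medians were 1217, 1311.5 and 2035 bp, and in pool C 1150.5, 1750 and 2403 bp, in the same order. Only 4 of 16 ligands and 5 of 25 receptors exceeded the genome median. Of the marked members 5 of 42 (11.9%) were under 600 bp, among them Cxcl10, Il6, Il12b and Il17rc, against 2.63% of all marked genes. The order of the ligand and receptor medians was not stable. With a −log10 q of at least 5 the ligand median was 1812 bp and the receptor median 1543.5 bp, over 15 ligands and 24 receptors (63.8% of all genes).

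Signal rank gave a like picture. A best peak ranked above the middle of the replicated list was found for 7 of 16 ligands (43.8%) and 15 of 25 receptors (60%), against 86.1% of all marked genes. In pool D these shares were 26.7%, 50% and 83.2%, and in pool C 65%, 84.6% and 91.8%. The top 25% of the replicated list held the best peaks of 3 receptors, Il6st, Il1rap and Il15ra, and of no ligand. In each pool it held 1 ligand, Ccl25, whose domain is shared with Elavl1. The receptors there were Il6st, Il1rap and Il17rd in pool D, and in pool C these 3 with Il15ra, Ccr10, Il1r1, Il3ra and Il6ra. Il15ra presents interleukin 15 to neighbouring cells and had its best peak in the top 16.3% of the replicated list.

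Of the marked members, 5 carried the mark at an internal start site and not at the 5′ end of the gene, which were Il11, Il16, Il1r1, Il1r2 and Il11ra1. Counting 5′ ends alone left 14 ligands and 22 receptors, beside 61.9% of all genes. A window of 500 bp left 14 ligands and 25 receptors, beside 64.3%, and an overlap of at least 200 bp left 15 and 25, beside 64.6%. A window of 2.5 kb gave 19 and 25, beside 65.9%, and start sites of every transcript type gave 17 and 26, beside 65.5%. Leaving out the genes whose domain also held a start of another protein-coding gene left 13 of 66 ligands and 22 of 54 receptors. The share over all genes was not computed for that setting, so these counts have no background beside them.

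No peak lay within 1 kb of a start of the other ligands in any of the replicated, pool D and pool C lists. Among the chemokines these were Ccl1, Ccl2, Ccl3, Ccl4, Ccl5, Ccl6, Ccl7, Ccl8, Ccl9, Ccl11, Ccl12, Ccl17, Ccl19, Ccl20, Ccl22, Ccl24, Ccl26, Ccl28, Cxcl2, Cxcl9, Cxcl13, Cxcl15 and Cxcl17. This set includes the main monocyte attractant Ccl2 and the lymphoid tissue chemokines Ccl19 and Cxcl13. Among the interleukins they were Il1b, Il1f5, Il1f6, Il1f8, Il1f9, Il1f10, Il2, Il3, Il4, Il5, Il9, Il10, Il12a, Il13, Il17a, Il17b, Il17c, Il17f, Il19, Il20, Il21, Il22, Il23a, Il24, Il25 and Il27. They include Il1b, the main secreted form of interleukin 1, and the T helper cytokines Il2, Il4, Il5, Il13 and Il17a.

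The unmarked receptors were Ccr1, Ccr2, Ccr3, Ccr4, Ccr6, Ccr7, Ccr8, Cxcr1, Cxcr2, Cxcr3, Cxcr5, Cxcr6, Il11ra2, Il12rb1, Il13ra2, Il17re, Il18r1, Il18rap, Il1rl1, Il20rb, Il22ra1, Il22ra2, Il23r, Il2ra, Il2rb, Il2rg, Il31ra, Il5ra, Il7r and Il9r. Il1rn was also unmarked. Many are receptors of leukocytes, such as Ccr7 of dendritic cells and T cells and the interleukin 2 receptor chains Il2ra, Il2rb and Il2rg. Il11ra2 is a near copy of Il11ra1, so its state is uncertain if reads common to both copies were not placed. Distances to the nearest peak of the replicated list were taken from the 5′ end of each gene. Their median was 40.4 kb for the 49 ligands and 41.2 kb for the 30 receptors. The largest were at Cxcl13 (203 kb) among the ligands and Il11ra2 (254.5 kb) among the receptors. Measured from its only protein-coding start, Ccl1 lay farther from a peak than Cxcl13, at 206894 bp.

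Members close to the limit of the window were few. Just inside it in the replicated list were Il11 (511 bp from a start to the nearest peak) and Il12b (906 bp). Just outside were Il1a (1380 bp), Il13 (1405 bp) and Il12a (2237 bp), a T helper cytokine and a subunit of interleukin 12 beside the alarmin Il1a.

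Promoter sequence differed between the marked and unmarked members and between the ligands and receptors. The number of CpG dinucleotides within 500 bp of the 5′ end had a median of 12 at ligands and 17 at receptors, against 41 over all genes. It was 26 at marked and 11 at unmarked ligands, 43 at marked and 11 at unmarked receptors, and 60 at marked and 9 at unmarked genes of the genome. All 10 members with 42 to 69 CpGs and all 10 with 70 or more were marked, in each of the replicated, pool D and pool C lists, beside 95.5% and 98.5% of all genes in those ranges in the replicated list. With 13 to 41 CpGs, 9 of 29 ligands (31%) and 9 of 23 receptors (39.1%) were marked in the replicated list, beside 56.4% of all genes. With 12 or fewer, 2 of 35 ligands and 2 of 20 receptors were marked, beside 11.4% of all genes.

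The classes differed in how their members fell into these ranges. With 42 to 69 CpGs there were 1 ligand and 9 receptors, and with 70 or more there were 4 ligands and 5 receptors. At 12 or fewer there were 35 ligands and 20 receptors. The receptors were thus the class with more CpG-rich promoters. The unmarked members with the most CpGs in the replicated list were Il12rb2 (36), Il31 (29), Cxcl2 (28), Cxcl3 (26) and Il17c (26), of which Il12rb2, Il31 and Cxcl3 had a peak in pool C. Those marked with few CpGs included Il11 (7), Il1r2 (11), Il18 (12) and Il12b (13). For Il11 and Il1r2 the 5′ end is not the marked start.

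**Figure D3:**
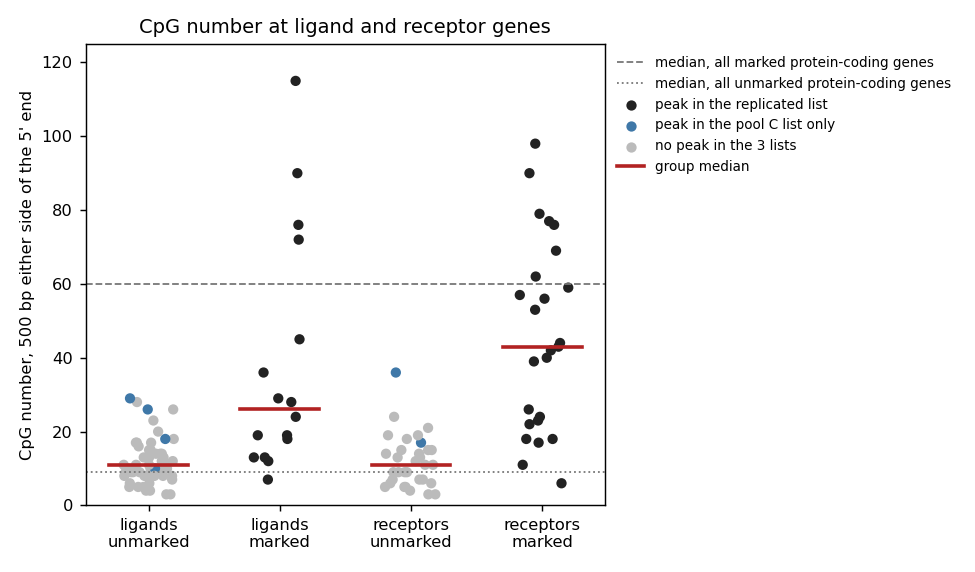
CpG number within 500 bp of the 5′ end (vertical axis) of each ligand and receptor, split by whether the replicated list has a promoter peak, with black points for marked genes, blue for genes with a peak in pool C only and grey for genes without a peak in the 3 lists. The red bars are group medians (11 and 26 for unmarked and marked ligands, 11 and 43 for receptors), and no unmarked member exceeds 36.

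The promoter sequences of a few members show these contrasts. Cxcl12, Cxcr4 and Il6st are shown as CpG-rich genes with broad domains. Il6, Il33 and Cxcl10 are shown as marked genes with fewer CpGs than these, and Il1b as a gene without a promoter peak. Each is the RefSeq promoter on assembly GRCm38.p6, from 250 bases before the start to 50 after it, written 5′ to 3′ on the strand of the gene, with CG and TATAAA in capitals. The windows are chr6:117168285-117168584 (forward strand) for Cxcl12, chr1:128592250-128592549 (reverse) for Cxcr4, chr13:112463820-112464119 (forward) for Il6st, chr5:30012864-30013163 (forward) for Il6, chr19:29924863-29925162 (forward) for Il33, chr5:92348840-92349139 (reverse) for Cxcl10 and chr2:129371090-129371389 (reverse) for Il1b.
Cxcl12: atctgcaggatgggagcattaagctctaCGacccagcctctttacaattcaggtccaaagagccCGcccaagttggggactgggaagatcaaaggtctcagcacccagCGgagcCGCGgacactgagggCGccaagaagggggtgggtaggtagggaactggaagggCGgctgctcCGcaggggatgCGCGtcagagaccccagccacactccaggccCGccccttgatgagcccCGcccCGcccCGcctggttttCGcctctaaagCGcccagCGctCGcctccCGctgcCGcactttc
Cxcr4: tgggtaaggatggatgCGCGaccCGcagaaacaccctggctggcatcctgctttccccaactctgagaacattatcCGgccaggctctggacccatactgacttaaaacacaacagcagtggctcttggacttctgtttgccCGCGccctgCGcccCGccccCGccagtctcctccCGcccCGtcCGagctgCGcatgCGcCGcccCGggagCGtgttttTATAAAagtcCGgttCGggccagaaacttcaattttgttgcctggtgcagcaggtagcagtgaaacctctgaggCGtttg
Il6st: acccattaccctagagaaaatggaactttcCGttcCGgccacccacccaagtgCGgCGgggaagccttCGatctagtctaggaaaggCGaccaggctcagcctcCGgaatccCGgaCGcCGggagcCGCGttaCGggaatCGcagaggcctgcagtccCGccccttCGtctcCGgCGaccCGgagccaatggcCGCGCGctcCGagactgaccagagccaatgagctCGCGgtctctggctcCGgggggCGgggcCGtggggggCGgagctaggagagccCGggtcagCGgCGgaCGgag
Il6: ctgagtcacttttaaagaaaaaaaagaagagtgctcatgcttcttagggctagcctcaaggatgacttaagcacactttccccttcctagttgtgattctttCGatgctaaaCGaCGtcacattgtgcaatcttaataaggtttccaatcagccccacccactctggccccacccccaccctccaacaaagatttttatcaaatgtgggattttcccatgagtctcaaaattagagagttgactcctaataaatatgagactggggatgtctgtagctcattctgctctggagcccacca
Il33: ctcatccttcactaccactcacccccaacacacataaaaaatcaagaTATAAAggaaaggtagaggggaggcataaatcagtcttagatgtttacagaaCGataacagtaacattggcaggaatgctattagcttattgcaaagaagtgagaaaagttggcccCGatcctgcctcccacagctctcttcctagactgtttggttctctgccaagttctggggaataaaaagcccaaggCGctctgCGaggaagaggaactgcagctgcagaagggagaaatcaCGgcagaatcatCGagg
Cxcl10: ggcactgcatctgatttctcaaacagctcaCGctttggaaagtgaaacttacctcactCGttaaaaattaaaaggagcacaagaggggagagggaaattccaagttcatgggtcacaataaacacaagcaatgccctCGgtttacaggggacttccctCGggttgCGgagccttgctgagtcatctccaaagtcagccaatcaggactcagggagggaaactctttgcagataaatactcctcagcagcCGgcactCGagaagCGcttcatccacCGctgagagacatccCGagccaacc
Il1b: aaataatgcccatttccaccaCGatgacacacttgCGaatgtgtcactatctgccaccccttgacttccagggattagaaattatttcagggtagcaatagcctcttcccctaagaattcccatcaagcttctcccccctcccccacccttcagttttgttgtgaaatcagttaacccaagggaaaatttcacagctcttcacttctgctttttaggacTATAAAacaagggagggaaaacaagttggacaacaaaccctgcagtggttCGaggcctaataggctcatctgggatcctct
In these windows Il6st had 33 CpGs, Cxcl12 and Cxcr4 20 each, Cxcl10 10, Il33 6, and Il6 and Il1b 3 each. Over the same span around GENCODE 5′ ends the median was 8.5 at marked ligands, 11 over all genes and 19 at all marked genes. Within 500 bp of the 5′ end the CpG number was 19 at Il6 and 8 at Il1b. The Il6 domain of 491 bp was lost with a −log10 q of at least 5.

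The TATAAA motif was searched in the genome over the same span around each GENCODE 5′ end. On either strand it was present at 21 of 69 ligands (30.4%) and 6 of 57 receptors (10.5%), against 12.7% of all genes. Counted on the strand of the gene and only from 45 to 16 bases before the start, where a TATA box usually lies, it was present at 14 ligands (20.3%), 2 receptors (3.51%) and 2.64% of all genes. None of the 16 marked ligands held it there, whereas 14 of the 53 unmarked ligands (26.4%) did, beside 0.96% of all marked and 5.75% of all unmarked genes. The 2 receptors were Il13ra2, which was unmarked, and Cxcr4, which was marked and whose TATAAA starts 30 bases before the start in the sequence above. In Il1b it starts 31 bases before the start. The Il33 copy, 203 bases before the start, lies outside that span.

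The kappaB motif, the site bound by NF-kappaB proteins, was found on either strand at 12 ligands (17.4%) and 9 receptors (15.8%), against 9.09% of all genes. It was present at 4 of 16 marked (25%) and 8 of 53 unmarked ligands (15.1%). At receptors it was present at 4 of 25 marked (16%) and 5 of 32 unmarked genes (15.6%). Over all genes the shares were 10.5% of marked and 6.45% of unmarked genes. The marked share was thus above the unmarked share at ligands and over all genes, and close to it at receptors. These matches are letters in a window and not measured sites.

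Marking was compared inside and outside gene clusters. Taking runs of at least 3 members with neighbours within 200 kb gave 8 clusters. Ligands inside clusters were marked in 2 of 28 cases (7.14%), and ligands elsewhere in 14 of 41 (34.1%), in the replicated list. For receptors the counts were 5 of 12 (41.7%) inside and 20 of 45 (44.4%) elsewhere. In pool C the ligand counts were 3 of 28 and 17 of 41, and in pool D 2 and 13. The receptor counts were 4 of 12 and 22 of 45 in pool C, and 4 and 20 in pool D. Over all genes the marked share was 64.8% in the replicated list, 63.7% in pool D and 66.3% in pool C. Clusters of other gene families were not counted.

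Of the clusters, 4 held no peak in any of the replicated, pool D and pool C lists over their whole length. They were Ccl2, Ccl7, Ccl11, Ccl12, Ccl8 and Ccl1 over 270.1 kb of chromosome 11, Ccl5, Ccl9, Ccl6, Ccl3 and Ccl4 over 138.9 kb of the same chromosome, Il24, Il20, Il19 and Il10 over 142.9 kb of chromosome 1, and Il1f8, Il1f9, Il1f6, Il1f5, Il1f10 and Il1rn over 198.3 kb of chromosome 2. The 270.1 kb ends at the annotated 5′ end of the Ccl1 gene, whose only protein-coding start lies inside the cluster at chr11:82179812. The only marked start sites in the T helper cytokine cluster of Il4, Il13 and Il5 on chromosome 11 were those of Rad50. This DNA repair gene lies between the members. The neutrophil chemokine cluster on chromosome 5 held peaks at Cxcl5 and Cxcl1, with Cxcl3 added in pool C, and none at Cxcl15, Cxcl2 or the platelet chemokines Ppbp and Pf4.

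In the interleukin 1 receptor cluster of chromosome 1 the Il1r2, Il1r1 and Il1rl2 genes were marked in each of these lists. The adjacent Il1rl1, the receptor of interleukin 33, and Il18r1 and Il18rap, the chains of the interleukin 18 receptor, lay in the 225.7 kb that followed, without a replicated peak. In the chemokine receptor cluster of chromosome 9 the non-members Slc6a20a, Lztfl1 and Fyco1 were marked, and so was the member Ccr9, which shares the Slc6a20a domain. Cxcr6, Ccr1, Ccr3 and Ccr2 had no promoter peak.

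**Figure D4:**
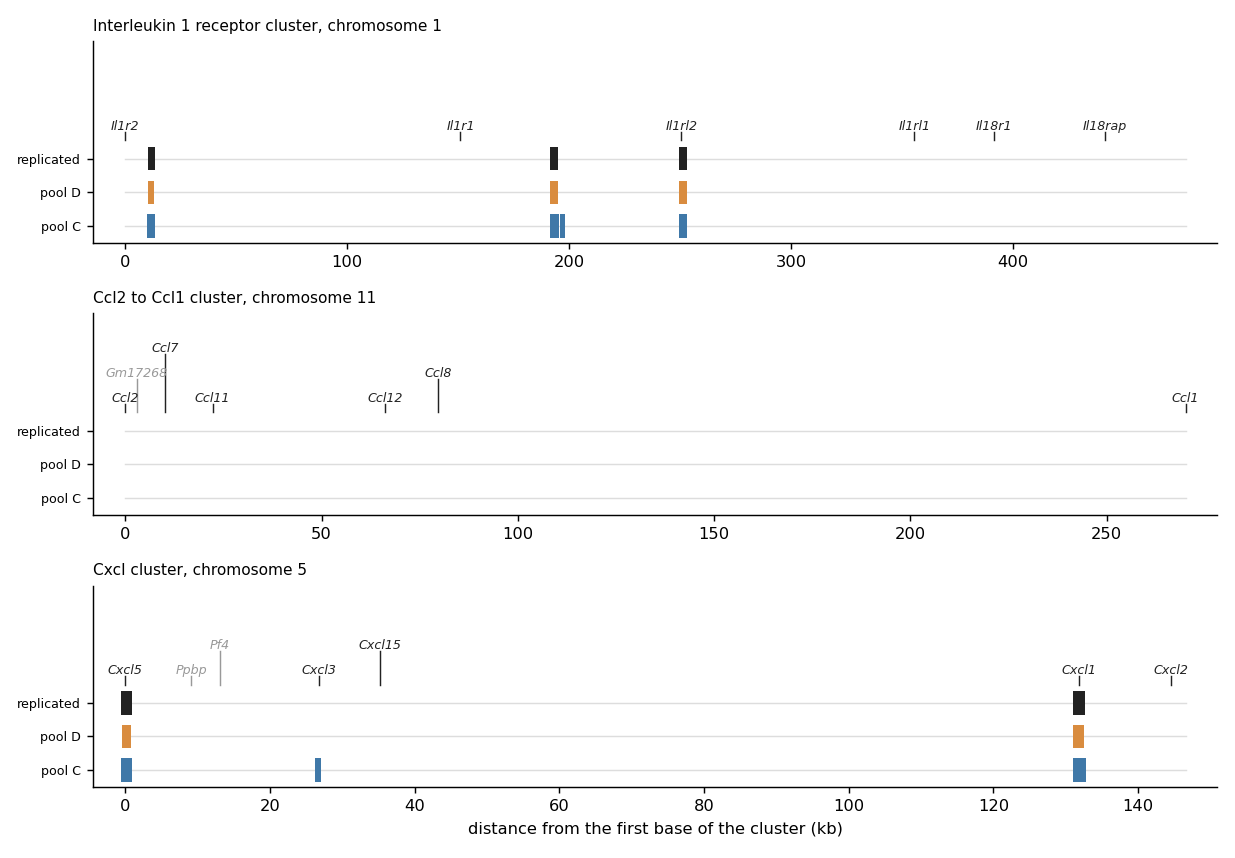
Peaks (blocks, with their width enlarged to stay visible) in the replicated, pool D and pool C lists across 3 gene clusters, by distance in kb from the first base of the cluster. Ticks are 5′ ends, with members in black and other coding genes in grey. The only protein-coding start of Ccl1 lies inside the cluster and not at its tick. The Ccl2 to Ccl1 cluster holds no peak in 270.1 kb, and the Il1r1 peak sits at an internal start site.

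Ligands were joined to the chains of 1 known receptor each in 48 systems, in which 1 chain can serve several ligands. Other receptors of a ligand were not counted, and the counts below depend on that choice. Few systems had both the ligand and all of its receptor marked. In the replicated list the ligand and every listed chain were marked in 4, which were Cxcl12 with Cxcr4, Ccl25 with Ccr9, Il6 with Il6ra and Il6st, and Il11 with Il11ra1 and Il6st. Of these, both Ccl25 and Ccr9 lay in domains shared with other genes. Il6 was lost with a −log10 q of at least 5, and Il11 with a window of 500 bp and with 5′ ends alone. Il33 and Il15 were marked with part of their receptor, Il1rap without Il1rl1 in the case of Il33 and Il15ra without Il2rb and Il2rg in the case of Il15.

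Every listed chain was marked without its ligand in 12 systems, which rest on 8 distinct receptor sets because several ligands share a receptor. These include Il1b, whose receptor chains Il1r1 (2007 bp) and Il1rap (5125 bp) were both marked, Il10 with Il10ra and Il10rb, Il13 with Il4ra and Il13ra1, Il27 with Il27ra and Il6st, and Il17a with Il17ra and Il17rc. Among the 12, Ccl28 rests on the shared Ccr10 domain. A ligand was marked without any chain in 6 systems, Cxcl16, Cxcl10, Cxcl1, Cxcl5, Il18 and Il7, some chains without the ligand in 5, and neither in 19. In pool D the counts in the same order were 4, 2, 12, 6, 5 and 19, and in pool C 5, 2, 11, 7, 7 and 16, with Il1a joining the complete systems in pool C.

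**Figure D5:**
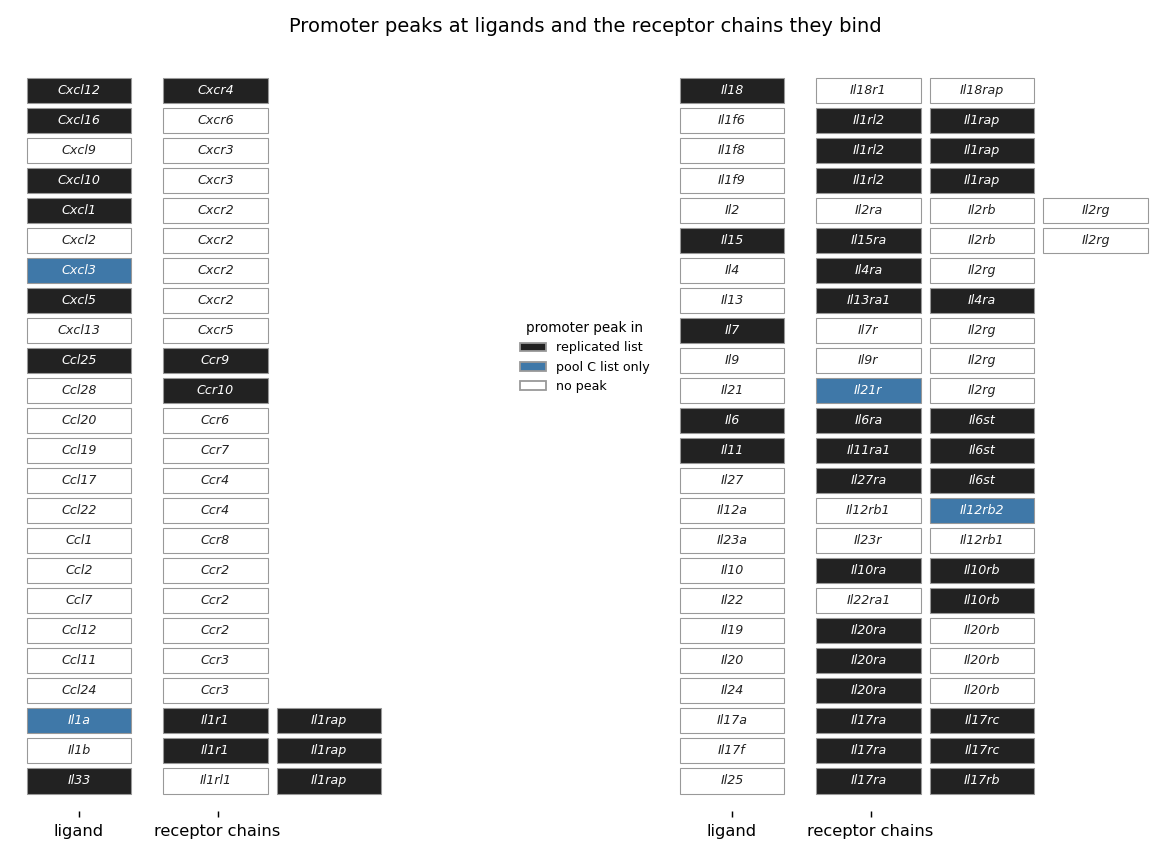
The 48 ligand and receptor systems, with a filled symbol for each gene that is marked, in black for genes marked in the replicated list and at least 1 pool and blue for genes marked in pool C only. Cxcl12, Ccl25, Il6 and Il11 are filled black together with all their chains, and Il1a is filled blue beside its black chains. In 11 systems all chains are filled beside an open ligand.

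The pools differed in which weak promoters were called, and the members called in a single pool were all called in pool C. Both pools marked 40 members (31%, beside 63.6% of all genes), 8 were marked in pool C only (6.2%, beside 2.62% of all genes) and none in pool D only (beside 0.0183% of all genes). The 8 were the ligands Il1a, Il34, Il31, Cxcl3 and Il12b, the receptor chains Il21r and Il12rb2, and Il18bp. Their pool C domains were 1009 bp at Il1a, 899 bp at Il21r, 543 bp at Il18bp, 502 bp at Il34, 499 bp at Il31, 392 bp at Il12b, 374 bp at Il12rb2 and 296 bp at Cxcl3. Each lay under the pool C median for all marked genes, and only Il12b was also in the replicated list. Il34 is a ligand of the Csf1 receptor made by neurons, Il21r binds interleukin 21, and Il31 is an itch-related cytokine whose pool C domain also held a start of Lrrc43.

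In the list called on both pools together Il31 (484 bp), Il21r (409 bp), Il34 (357 bp), Il12rb2 (242 bp) and Il18bp (230 bp) were also marked, and Il1a and Cxcl3 were not. Without pool C these genes and Il12b have no promoter peak. All 40 members marked in both pools had the wider domain in pool C, as did 96.8% of the genes marked in both pools. The median log2 ratio of pool C to pool D breadth was 0.47 for members and 0.23 for those genes. The largest ratio was at Il10ra, the ligand-binding chain of the interleukin 10 receptor, with 545 bp in pool D but 1913 bp in pool C, a factor of 3.51. Il11 followed with a factor of 2.66, Il1rapl2 with 2.39 and Cxcl10 with 2.03.

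Microglial markers moved with the pools in the same direction. Of 20 microglial markers, 2 were marked in pool D, 14 in pool C and 6 in the replicated list. In pool C only, 12 of them were marked, beside 2.62% of all genes. The defining markers Aif1, Csf1r, Cx3cr1, P2ry12, Tmem119 and Trem2 had no promoter peak in pool D and domains of 286 to 2263 bp in pool C. C1qb, Fcrls, Itgam, Gpr34, Selplg and Mpeg1 had none in either. Endothelial markers went from 8 of 12 in pool D to 12 in pool C, and mural and meningeal markers from 7 to 9 of 11. Oligodendrocyte markers likewise went from 8 to 10 of 10, while all neuronal and astrocyte markers were marked in both pools. Pool C also had more peaks in all. The part of these in the pool C members was not tested. Markers of other leukocytes were almost absent, with 0 of 17 lymphocyte markers in pool D and 1 (Pax5) in pool C, 0 and 1 (Mpo) of 11 for neutrophils and mast cells, and 0 of 7 border macrophage markers in both pools.

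Signal transducers and other receptor chains of the same pathways were marked at larger shares than the members, and related chemokine genes were not. All 37 signal transducers listed, among them the Jak kinases, Stat factors, Myd88, Irak kinases and NF-kappaB subunits, were marked in the replicated list (beside 64.8% of all genes), with 36 in pool D, where Stat4 was missing, and 37 in pool C. Their median breadth was 2356 bp. Their CpG numbers ran from 4 at Tollip to 146 at Tab2, and their share was not compared within ranges of CpG number. Receptor chains outside the symbol rule were marked in 16 of 19 cases (84.2%), among them Lifr (3634 bp), the partner of Il6st, and Ifngr2 (2773 bp), with Csf2rb, Csf2rb2 and Csf3r unmarked. Csf2rb and Csf2rb2 are near copies of each other, so their state is uncertain in the way given for Il11ra2.

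Cytokines outside the symbol rule were marked in 7 of 16 cases (43.8%), fewer than the 64.8% of all genes. The marked ones were Kitl (4821 bp), Csf1 (3333 bp), Tgfb1 (3142 bp), Clcf1, Lif, Flt3l and Ctf1, and the unmarked ones were Tnf, Osm, Cntf, Csf2, Csf3, Ebi3, Tslp, Ifng and Ifnb1. Related chemokine genes were marked in 4 of 13 cases (30.8%). They were the neuronal chemokine Cx3cl1 (4605 bp), the Cxcl12 scavenger Ackr3 (5287 bp), Ccrl2 (1812 bp) and Cmklr1 (1109 bp). Cx3cr1, the receptor of Cx3cl1 on microglia, had 390 bp in pool C and no promoter peak in the other lists. Outside the symbol rule receptor chains were marked at a larger share than cytokines. These lists were chosen with earlier results of these data known, so they are no independent check of the members.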

How the data were processed

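H3K4me3 was measured by chromatin immunoprecipitation and sequencing in 2 pools of mouse hippocampus, with fragments in the size range 200 to 600 per the labels. The authors deposited 4 narrow peak lists on mm10: pseudoreplicated peaks of pool D, of pool C and of both pools, and replicated peaks. The per-library notes tie each single-pool list to 1 alignment of its 2 technical replicates. The signal of a peak is its enrichment as deposited by the authors and was used only to rank peaks within a list. The −log10 q value was deposited by the authors for each peak and was used only for the stricter threshold. The aligner and peak caller were not named in the sources used here. Weak peaks were kept in the deposited lists, down to a −log10 q of 0.26 among the replicated peaks. Depth is unknown from these files, so no counting interval was given.

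Genes, start sites and sequence came from GENCODE M21 and GRCm38, the same build as mm10. Mitochondrial genes were left out. Python 3.11.15, numpy 2.4.6, pandas 2.3.3 and matplotlib 3.10.9 were used, and the marking step was tested on simulated peaks. CpG numbers and motifs were counted in the genome. Printed promoters came from the RefSeq table, which held 98 of the 129 members. Values were described by counts, shares and medians beside all protein-coding genes, with no test.

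Full values went to the 8 ligands and 8 receptors with the broadest domains, every member marked in 1 pool, the 5 unmarked members with the most CpGs and the 5 marked with the fewest. A member that this rule takes is not reported here, and systems that use it were left out, while counts over all members include it. Values of other genes were added after they were seen. The members, gene lists and ligand and receptor systems were chosen with earlier results of these data known. The alternatives changed the peak list, threshold, window, start sites, overlap, gap, shared domains and symbols.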

Additional observations from a re-analysis of the deposited data

How the results depend on the processing

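The ligand count stayed within 13 to 20 and the receptor count within 22 to 26 over 11 alternatives each, and the pool C count within 7 to 9 over 4. The receptor median breadth ran from 1311.5 to 1750 bp over 13 alternatives. The ligand median of 1518 bp moved by more than 47 bp, the SD of the pool D and pool C medians, in 11 of 13 alternatives. Those medians cover 15 and 20 ligands, so their SD is no spread over the same genes. All 15 ligands marked in both pools were wider in pool C. For receptors the SD was 310 bp. The ligand median moved to 1217 bp in pool D, 1150.5 bp in pool C and 1138 bp in the joint list of both pools. It was 1812 bp with a −log10 q of at least 5, 1826.5 bp with a 500 bp window and 1052 bp with a 2.5 kb window. With start sites of every transcript type it was 1224 bp, and with an overlap of 200 bp 1812 bp. The median was 1224 bp without shared domains, 1611 bp with suffixed symbols added and 1285 bp with no gap joined. Its set of genes changed with each of these settings except the last, and the cause was not tested further. Of the 3 members that are neither ligand nor receptor, 2 were marked in pool C, 2 in the joint list, and 0 once the shared Il4i1 domain was left out. The threshold of 5 removed Il6 among the ligands, the 500 bp window removed Il11 and Il12b, and the 2.5 kb window added Il12a, Il13 and Il1a.

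No paired analysis was possible because each pool gave 1 peak list, the technical replicates were merged into 1 alignment per pool, and no result comes from a test. Leaving out a pool means reading the list of the other pool. With unknown depth, a gene without a peak was not detected and is not shown to lack the mark.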

Other observations

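Some members carried H3K4me3 inside the gene body, over 1 kb from any annotated start site of a protein-coding gene. The replicated list held 13 such peaks in 12 genes, pool D 13 in 11 genes and pool C 19 in 14 genes. Members with such a peak made up 9.3%, 8.53% and 10.9% of the 129, below the 14.1%, 12.3% and 19.8% of all protein-coding genes. Of the peaks, 3, 5 and 3 lay within the promoter domains described above, at Il1rap, Il1rapl1, Cxcl14, Cxcl12 and Il1a. Several lay in genes whose promoters were unmarked. Ccl28, a chemokine of mucosal epithelia and a ligand of Ccr10, had no promoter peak, but a peak of 897 bp at chr13:119631540-119632436, 7721 bp from the nearest start site (pool D 1010 bp, pool C 844 bp). Il2ra, the high-affinity chain of the interleukin 2 receptor, had a peak of 474 bp at chr2:11664180-11664653 (pool D 459 bp, pool C 483 bp). Il17re had one of 823 bp at chr6:113469230-113470052 (731 and 884 bp), which lay 1375 bp from the start of the neighbouring marked gene Il17rc, and Il12rb1 one of 477 bp at chr8:70816820-70817296 (413 and 628 bp). These 4 peaks were present in both pools, unlike the promoter peaks found in pool C alone.

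Marked members had them as well. Il33 had a body peak of 1005 bp at chr19:29948158-29949162 (pool D 634 bp, pool C 1061 bp), 2368 bp from the nearest start. Il34, unmarked at its promoter in pool D and in the replicated list, had a body peak of 485 bp at chr8:110752542-110753026 in the replicated list and peaks of 619 and 432 bp in pool C.

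Chemokine genes with a further suffix after the number stood outside the symbol rule. Of these, Ccl27a was marked with 1611 bp (pool D 933 bp, pool C 2024 bp), while Ccl21a, Ccl21b, Ccl27b and Ccr1l1 were not marked in the replicated, pool D or pool C list. Ccl21a with Ccl21b and Ccl27a with Ccl27b are near copies, so reads common to both may not have been placed.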
